A study of Mus musculus with 3 samples.

Results

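Among the cells of 3 mouse lungs, 322 of 7642 were *Fcer2a*-positive follicular-like B cells. The whole lungs of wild-type C57BL/6 mice, which breathed room air (RA) on days of life 1 to 14, were taken at P14 for single-cell RNA-Seq (scRNA-Seq). The libraries, numbered mice 2, 3, and 4, form 1 condition, so no treatment was compared, and the mice, not the cells, were the replicates. The labels name no sex or litter, and no gate or sort was applied, so B cells in the tissue cannot be told apart from B cells in blood left in the vessels. Each unique molecular identifier (UMI) marks 1 captured transcript, and values are raw UMI counts of a cell, or counts per 1000000 UMIs (CPM) of all cells of a class in 1 mouse. The libraries shared 5, 2, and 5 cell barcodes by pairs, none of them among the 322 cells.

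The 322 cells were chosen by their own counts. Each had at least 200 genes detected and at most 20% mitochondrial UMIs, at least 3 UMIs of *Cd79a* and *Cd79b* together, at least 1 of *Fcer2a*, none of *Vpreb3*, *Cd3e*, *Nkg7*, or *Cdh5*, and fewer than 20 of *S100a8* and *S100a9* together. These genes, and the markers *Cd79a*, *Fcer2a*, *Ighd*, *Fcmr*, and *Bank1* that came with the rule, are therefore described below with no test. Mouse 2 gave 70 of the cells, mouse 3 gave 160, and mouse 4 gave 92. They held 332319, 706375, and 405076 UMIs, with a median of 4159 UMIs per cell and a range of 1280 to 22601.

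A B cell reads antigen through its surface immunoglobulin, which signals through CD79A and CD79B. A B cell that leaves the bone marrow is a transitional cell, and it matures as it gains IgD beside IgM, CD21 (*Cr2*), and CD23 (*Fcer2a*), the low-affinity receptor for IgE. Mature naive cells of this kind recirculate between blood and the follicles of lymphoid organs, are held alive by BAFF signals and BCL2, enter lymph nodes with the help of CCR7, and present antigen to helper T cells on MHC class II. *Vpreb3* encodes a protein that binds the immunoglobulin light chain inside the cell and is known from B cell precursors and immature B cells.

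*Fcer2a* (ENSMUSG00000005540) lies on the minus strand at chr8:3681737-3694175, and *Vpreb3* (ENSMUSG00000000903) on the plus strand at chr10:75943057-75949657, both on GRCm38 with GENCODE M21. Gm16221 overlaps *Vpreb3* on the minus strand. The windows of 250 bases before a RefSeq start of each gene (GRCm38.p6) are shown because these 2 genes separate the classes compared here, with the letters of a searched motif in capitals. The *Fcer2a* window, chr8:3690862-3691111, is printed on the minus strand and lies within the gene but in no annotated exon. Its capitals, at bases -168 to -159 from the start, spell the STAT6-type motif, which is TTC, any 4 bases, and GAA. The *Vpreb3* window, chr10:75948050-75948299, is printed on the plus strand and lies within the longer *Vpreb3* transcript, in no annotated exon. Its capitals, at bases -45 to -38, spell the octamer ATGCAAAT read on the other strand.
Fcer2a, second of 3 RefSeq starts: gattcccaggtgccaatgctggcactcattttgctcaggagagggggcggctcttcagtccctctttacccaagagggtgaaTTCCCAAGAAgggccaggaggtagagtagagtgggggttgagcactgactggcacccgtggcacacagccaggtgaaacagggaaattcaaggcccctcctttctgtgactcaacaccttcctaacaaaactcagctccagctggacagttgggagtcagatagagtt
Vpreb3: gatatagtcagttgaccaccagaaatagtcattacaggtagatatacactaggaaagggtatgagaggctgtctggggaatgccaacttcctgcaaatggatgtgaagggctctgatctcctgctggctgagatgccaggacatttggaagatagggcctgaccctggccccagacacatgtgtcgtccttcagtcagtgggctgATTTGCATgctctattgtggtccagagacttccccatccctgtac
Among 32851 windows of this length, the STAT6-type motif was found in 5.85%, the octamer in 1.60%, and GTGGGAA, the RBPJ-type motif also searched, in 5.42%, on either strand. The windows before the other 2 starts of *Fcer2a* held none of the 3 motifs. A match of letters is a description, and 3′ UMI counts do not show which start was used.

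B cells were found in every lung, and under the rule as given the follicular-like cells took nearly the same share of them in each. Cells with at least 3 UMIs of *Cd79a* and *Cd79b* numbered 414 in mouse 2, 919 in mouse 3, and 533 in mouse 4, 1866 in all. The follicular-like cells were 16.9% of them in mouse 2, 17.4% in mouse 3, and 17.3% in mouse 4, or 17.2% ± 0.258 (SD, n = 3). The exact 95% binomial intervals were 13.4% to 20.9%, 15.0% to 20.02%, and 14.1% to 20.7%, and cover counting error only. As a share of all cells kept, the values spread further, at 2.93%, 6.15%, and 3.47% (4.18% ± 1.72, SD, n = 3), and mouse 3 was the highest, as it was for all B cells. The shares of B cells lay further apart with the rule applied after each cell was thinned to 2000 UMIs (17.7%, 19.2%, and 22.6%). They also did with at most 10% mitochondrial UMIs (13.7%, 12.1%, and 10.8%).

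The other B cells fell into 4 classes by the same genes. *Vpreb3*-positive *Fcer2a*-negative cells were the most frequent, 783 cells or 40.7% ± 4.74 of B cells. Cells with UMIs of both genes (*Vpreb3*-positive *Fcer2a*-positive) numbered 436, or 24.3% ± 3.32. Cells with neither numbered 263, or 14.5% ± 1.71, and 62 cells, 3.33% ± 0.313, had a UMI of a gene that the rule shuts out. The share of *Vpreb3*-positive *Fcer2a*-negative cells was higher in mouse 3 than in the others, while that of the follicular-like cells hardly moved, and shares of 1 total are not independent of each other.

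**Figure D1:**
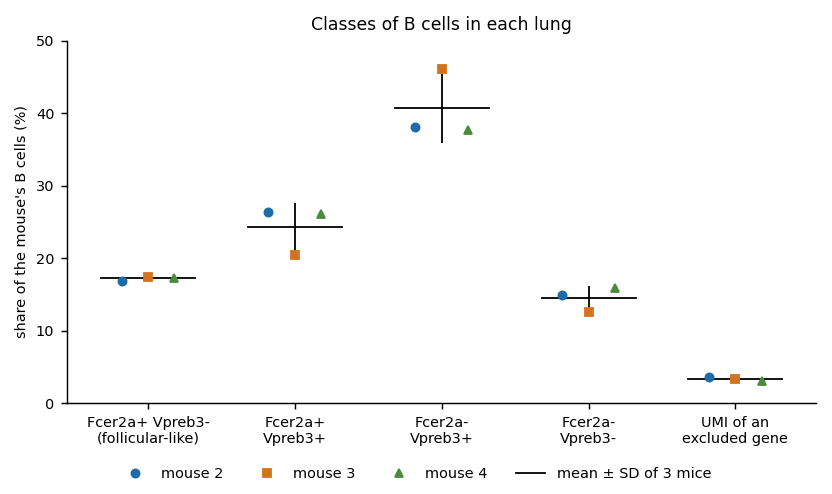
Share of the B cells of each mouse (%, y axis) in the 5 classes set by UMIs of Fcer2a, Vpreb3, and the excluded genes (x axis), with 1 point per mouse and the mean ± SD of 3 mice as lines. The follicular-like class lies between 16.9% and 17.4% in all 3 mice, and the Fcer2a-negative Vpreb3-positive class spreads most, with an SD of 4.74.

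The line between these classes rested on few UMIs. Of the 322 follicular-like cells, 79 had 1 *Fcer2a* UMI, 53 had 2, 51 had 3, and 139 had 4 or more. The 79 cells just inside the line had 1326 CPM of *Ighd*, 629 of *Fcmr*, and 621 of *Bank1*. The 263 cells just outside it, with 0 *Fcer2a* UMIs and all other conditions met, had 569, 436, and 409. The 190 cells with 1 *Vpreb3* UMI that met all other conditions had 1439 CPM of *Ighd* and 950 of *Fcer2a*, and the 246 cells with 2 or more had 954 and 615. Only 3 cells were at the limit of 3 *Cd79* UMIs. A gene with 1 UMI in a cell can be missed by sampling, so cells near both lines may stand on either side of them.

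The genes of the rule and the markers that came with it are described here by level, and they do not test the label of follicular-like B cells, since they chose the cells or came with the rule. *Fcer2a* stood at 782 CPM in mouse 2, 827 in mouse 3, and 886 in mouse 4, a mean of 832 ± 52.1. Among 1086 other immune cells only 3 had any *Fcer2a* UMI, and among 3749 nonimmune cells 19 had 1 or more (0.597 CPM). Nonimmune cells were those with no UMI of *Cd79a*, *Cd79b*, *Ptprc*, *Coro1a*, or *Cd52*. Droplets with free RNA of these genes were thus left out, so the values in nonimmune cells can understate free B cell RNA. *Ighd*, the constant region of IgD, stood at 1508, 1689, and 1424 CPM (1540 ± 135) and was found in 313 of 322 cells, 97.0% averaged over mice. In nonimmune cells, which are deeper, with medians between 8534 and 9335 UMIs per cell, 1.80% had an *Ighd* UMI. The *Ighd* level was 1130 CPM in the *Vpreb3*-positive *Fcer2a*-positive cells, 584 in the *Vpreb3*-positive *Fcer2a*-negative cells, and 568 in the cells with neither. *Fcmr*, the receptor for secreted IgM, stood at 831, 590, and 565 CPM, against means of 419, 336, and 434 in those 3 classes. *Bank1*, a scaffold of B cell receptor signaling, stood at 668, 752, and 738 CPM, against means of 673, 503, and 408, so mouse 2 was no higher than the cells positive for both genes. *Cd79a*, at 2597, 2231, and 2217 CPM, overlapped between the follicular-like cells and the cells positive for both genes.

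**Figure D2:**
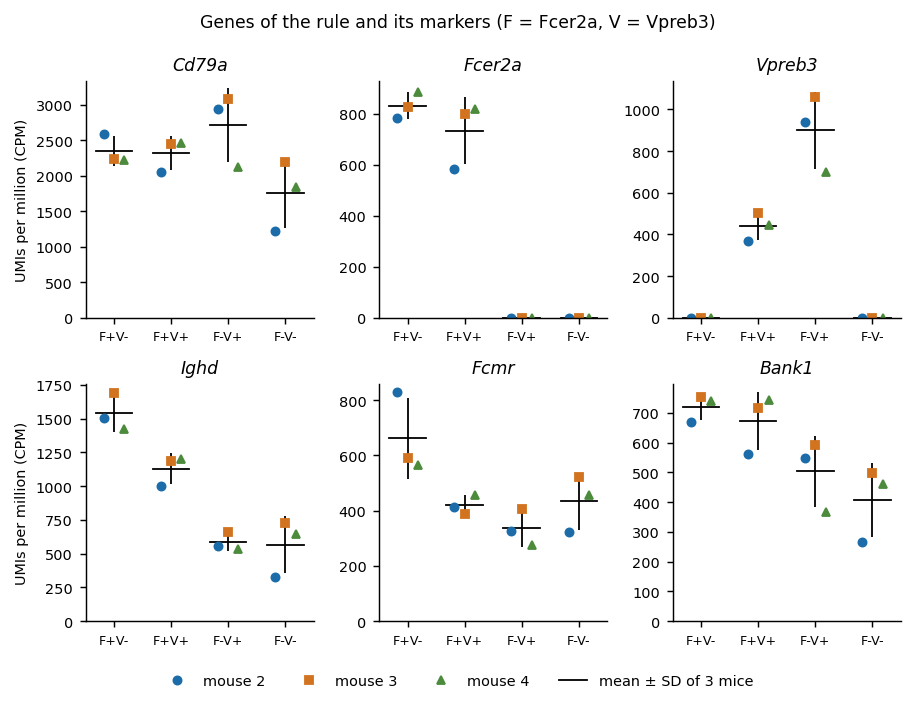
Counts per 1000000 UMIs (CPM, y axes) of the genes that set the classes and of the markers, in 4 classes of B cells (x axes, F for Fcer2a and V for Vpreb3), with 1 point per mouse and the mean ± SD of 3 mice. Fcer2a and Vpreb3 are 0 where the rule sets them to 0, and Ighd lies between 1424 and 1689 CPM in the follicular-like cells (F+V-).

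Heavy chain UMIs in these cells were mainly those of IgM and IgD. *Ighm*, the constant region of IgM, stood at 5790, 5705, and 5441 CPM, and 313 of the 322 cells had UMIs of both *Ighm* and *Ighd* (97.1%, 98.1%, and 95.7% of cells by mouse). That share was 94.0% in the cells positive for *Vpreb3* and *Fcer2a*, 79.4% in those with *Vpreb3* alone, and 76.4% in those with neither. In 13 of the 322 cells (4.04%) *Ighd* UMIs outnumbered those of *Ighm*, which was true of 7 of the 436 cells positive for both genes (1.61%), 1 of the 783 *Vpreb3*-positive *Fcer2a*-negative cells (0.128%), and 3 of the 263 cells with neither (1.14%). Switched constant regions were rare, with 6 UMIs of *Ighg3* and 4 of *Igha* in the 322 cells. No cell of these 4 classes had more UMIs of a switched constant region than of *Ighm* and *Ighd*, which for the follicular-like cells allows a share of up to 5.13%, 2.28%, and 3.93% by mouse (exact 95% interval). Kappa UMIs outnumbered lambda UMIs in 274 cells (85.1%) and lambda outnumbered kappa in 45 (14.0%). In the tests below *Ighm* and *Igkc* passed in none of the comparisons among B cells (for *Ighm* against the *Vpreb3*-positive *Fcer2a*-negative cells, adjusted p = 0.0703, or 0.0211 with the mouse as a block). *Iglc1* was lower than in all other B cells (log2 -0.61, adjusted p = 0.0390), at 788, 919, and 862 CPM. It was also lower than in the *Vpreb3*-positive *Fcer2a*-negative cells, and it did not pass against the cells with neither gene. Whether the counting split reads among the lambda constant genes was not tested. All immunoglobulin genes together took 1.80% ± 0.0901 of the UMIs of the follicular-like cells, and 1.73% in all other B cells.

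For the tests, the UMIs of a class were added up within each mouse, so that 3 sums stood against 3. The quasi-likelihood test of edgeR was used, p-values were adjusted over all genes tested by the method of Benjamini and Hochberg, and 0.05 was the threshold. Against all other B cells, 121 of 9042 genes were higher in the follicular-like cells (1.34%) and 53 were lower (0.586%), 1.92% in all. The groups of 3 mice did not overlap for any of these 174 genes, and they did not overlap for 22.6% of all genes tested. With the mouse as a block, 285 (3.15%) and 395 (4.37%) passed, among them all 174. Without TMM normalization the split was 53 higher and 56 lower, and with DESeq2 it was 202 and 231. This comparison was also sensitive to single libraries, since 3 genes passed without mouse 2 and 9 without mouse 4. Against the *Vpreb3*-positive *Fcer2a*-negative cells, 264 of 7341 genes were higher (3.6%) and 180 were lower (2.45%), 6.05% in all. There, 111 passed without mouse 2 and 235 without mouse 4. With the mouse as a block 4.45% were higher and 3.11% lower, among them 437 of the 444 genes. Against the cells with neither gene, which differ in the rule by *Fcer2a* alone, 71 of 6389 were higher (1.11%) and 75 were lower (1.17%), 2.29% in all, with 67 and 139 by DESeq2 and 0.97% and 1.35% with the block. Of these 146 genes, 121 also passed with the block. There, 37 passed without mouse 2 and 2 without mouse 4. These comparisons share the follicular-like cells, so their results are given side by side and are not independent. *Fcer2a* and *Vpreb3*, whose calls the rule fixed, are counted among the genes that passed.

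MHC class II genes were higher in the follicular-like cells than in all other B cells as 1 class, but none passed against the cells positive for both *Vpreb3* and *Fcer2a* (0 of 10, median 0.36). Against all other B cells, 8 of the 10 genes of the list passed upward and none downward, where 1.34% of all genes tested were higher, and the median of the list was 0.83 on the log2 scale, against -0.01 for all genes. Against the *Vpreb3*-positive *Fcer2a*-negative cells 9 of 10 were higher (median 0.99, all genes -0.00), and against the cells with neither gene 5 of 10 (median 0.72, all genes -0.01). The list summed to 19599, 18993, and 15471 CPM in the follicular-like cells, above the highest sum of all other B cells as 1 class, 13181, though the cells positive for both *Vpreb3* and *Fcer2a* reached 15497 in mouse 3. It averaged 11104 in the *Vpreb3*-positive *Fcer2a*-negative cells, 32753 in *Flt3*-positive immune cells, which hold the dendritic cells, and 82.3 in *Cd3e*-positive cells.

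The chains that bind peptide led the group. *H2-Aa*, the alpha chain of I-A, stood at 2648, 2756, and 2205 CPM in the follicular-like cells and at 1174, 1240, and 825 in the *Vpreb3*-positive *Fcer2a*-negative cells. The difference was 1.27 ± 0.15 (SE) on the log2 scale (adjusted p = 0.000158), and 0.93 ± 0.12 against all other B cells (adjusted p = 0.00839). *H2-Eb1*, the beta chain of I-E, stood at 2106, 2252, and 1782 CPM against 871, 942, and 649, a difference of 1.35 ± 0.14 (adjusted p = 7.22e-05). *H2-Ab1* was higher by 1.18 and 0.95 in the same comparisons. In each of these genes the lowest follicular-like value lay above the highest value of the other 3 classes of B cells that the plot of class II genes shows. Against the cells positive for both genes, where 14.0% of all genes tested did not overlap, none of the 3 passed (adjusted p = 0.343, 0.305, and 0.285).

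Genes that load peptide and set transcription of the group moved in the same direction. *H2-DMa*, part of the complex that exchanges peptides, was higher by 0.79 against the *Vpreb3*-positive *Fcer2a*-negative cells (adjusted p = 0.00639), at 367, 367, and 304 CPM against 227, 235, and 156. *H2-Ob*, part of the complex that restrains H2-DM, was higher by 1.06 (adjusted p = 0.00132). *Ciita*, the coactivator that switches on class II genes, stood at 102, 87.8, and 91.3 CPM, and was higher by 0.92, 0.94, and 1.18 against all other B cells, the *Vpreb3*-positive *Fcer2a*-negative cells, and the cells with neither gene (adjusted p = 0.0414, 0.00771, and 0.0255). *Cd74*, the invariant chain, did not pass in any of the 3. Its log2 differences were 0.44, 0.40, and 0.43 (adjusted p = 0.134, 0.148, and 0.118), and with the mouse as a block they passed (adjusted p = 0.0023, 0.0154, and 0.0411). Of the 9 genes higher than in the *Vpreb3*-positive *Fcer2a*-negative cells, 3 passed without mouse 2, 8 without mouse 4, and 3 with at most 10% mitochondrial UMIs. Of the 5 higher than in the cells with neither gene, 4 passed with the mouse as a block, 4 by DESeq2, 2 without mouse 2, and 3 without mouse 3. None of the 5 passed without mouse 4 or with at most 10% mitochondrial UMIs. Of the 8 higher than in all other B cells, none passed without mouse 2, without mouse 4, or with that filter on mitochondrial UMIs, which left 24, 47, and 26 follicular-like cells.

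**Figure D3:**
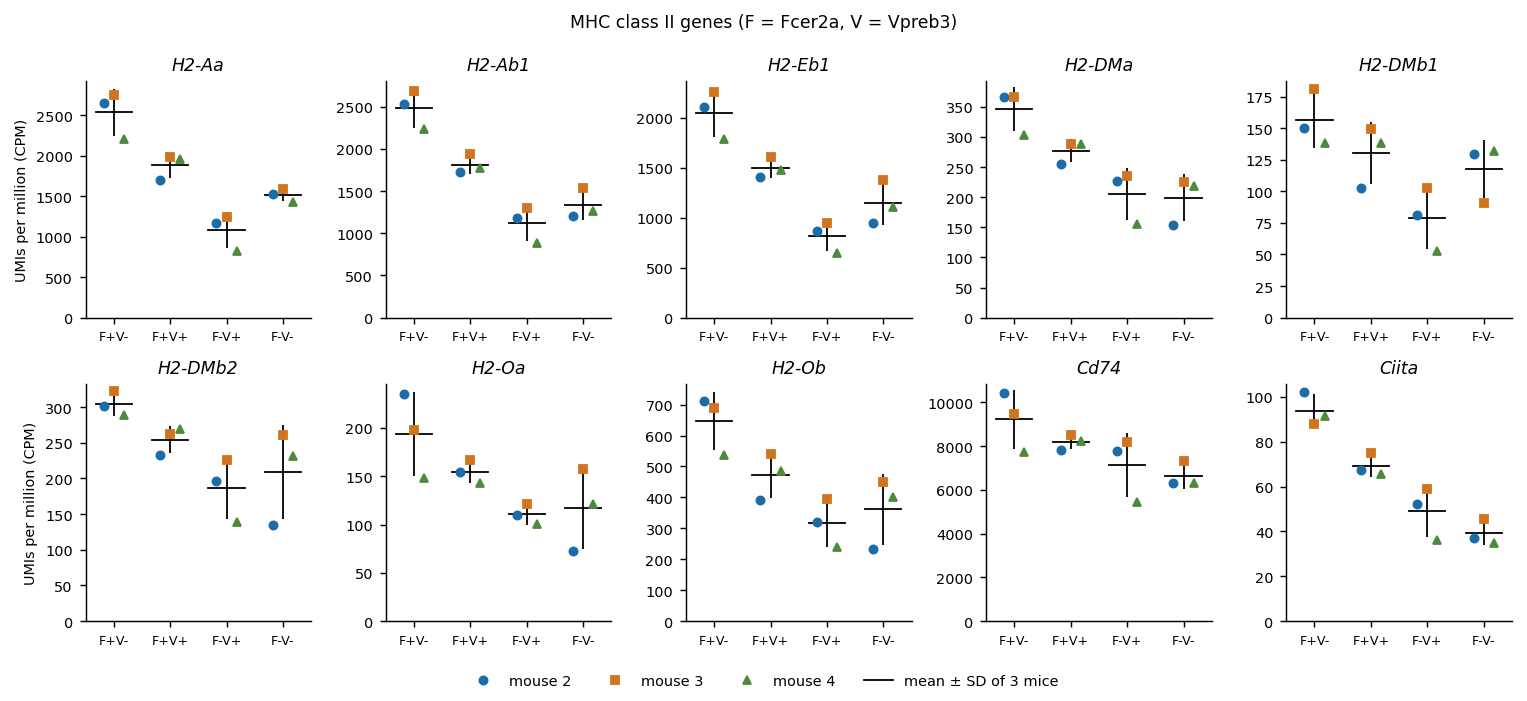
Counts per 1000000 UMIs (CPM, y axes) of the 10 MHC class II genes in 4 classes of B cells (x axes, F for Fcer2a and V for Vpreb3), with 1 point per mouse and the mean ± SD of 3 mice. The means of H2-Aa step down from 2536 CPM in the follicular-like cells (F+V-) to 1883 in F+V+ and 1080 in F-V+.

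Of the receptors for homing, *Ccr6* and *Itga4* were higher in the follicular-like cells than in all other B cells, 2 of 10 genes of this list (median 0.51), or 5 with the mouse as a block, and none was lower. None of the 10 passed against the cells positive for both *Vpreb3* and *Fcer2a* (median 0.14), where *Ccr6* had a nearly equal mean. Against the *Vpreb3*-positive *Fcer2a*-negative cells 5 were higher and none was lower (median 0.66), of which 1 passed without mouse 2, 3 without mouse 4, and 1 with at most 10% mitochondrial UMIs. *Ccr6*, the receptor for CCL20, stood at 66.2, 58.0, and 54.3 CPM against 3.93, 10.5, and 12.4, a difference of 2.65 ± 0.33 (adjusted p = 0.000239). Against all other B cells *Ccr6* passed narrowly (1.32 ± 0.28, adjusted p = 0.0498), and the range of its adjusted p over the alternatives reached 0.258, without mouse 2. *Cxcr5* and *Ccr7*, the receptors that lead B cells to follicles and T zones, were higher by 0.55 and 0.78 than in the *Vpreb3*-positive *Fcer2a*-negative cells (adjusted p = 0.0397 and 0.0226) and did not pass against all other B cells (0.40 and 0.62, adjusted p = 0.110 and 0.129), though *Ccr7* did with the mouse as a block (adjusted p = 0.0226). *Itga4*, an integrin chain for VCAM-1, was higher in both comparisons, by 0.82 and 0.71. Neither *Ccr6* nor *Itga4* passed against all other B cells without mouse 2 or without mouse 4.

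Some other genes of mature naive B cells were higher as well. Of 13 genes of the list, 3 were markers that came with the rule and were left out, and 3 of the other 10 (*Cr2*, *Zfp318*, and *Btla*) were higher both than in all other B cells (median 0.55, or 6 genes with the mouse as a block) and than in the cells with neither gene (median 0.45). Against the *Vpreb3*-positive *Fcer2a*-negative cells 7 were higher and 1 was lower (median 0.59). None of the 10 passed against the cells positive for both *Vpreb3* and *Fcer2a* (median 0.08), where *Cr2* had a nearly equal mean. *Cr2*, the complement receptor CD21, stood at 102, 122, and 128 CPM, against 44.6, 56.1, and 46.3 in the *Vpreb3*-positive *Fcer2a*-negative cells (1.28 ± 0.16, adjusted p = 0.000235). *Zfp318*, which is needed for IgD transcripts to be made beside those of IgM, stood at 247, 287, and 360 CPM against 117, 143, and 119 (1.26 ± 0.14, adjusted p = 0.000135). For both genes the groups did not overlap, which held for 21.3% of all genes tested against the *Vpreb3*-positive *Fcer2a*-negative cells. *Tnfrsf13c*, the BAFF receptor, was the gene that was lower, at 217, 185, and 146 CPM against 296, 398, and 250 (-0.76 ± 0.17, adjusted p = 0.0152). Without mouse 2 or mouse 4 none of the 3 passed against all other B cells, and 2 of the 7 passed against the *Vpreb3*-positive *Fcer2a*-negative cells in either case. Against the cells with neither gene 2 of the 3 passed without mouse 2 and none without mouse 4 or with at most 10% mitochondrial UMIs. Of the 7, 2 passed with that filter and 2 without TMM.

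Survival genes did not move together. *Bcl2*, which blocks the mitochondrial path of cell death, stood at 286, 256, and 254 CPM, at 64.3, 69.9, and 60.4 in the *Vpreb3*-positive *Fcer2a*-negative cells, and at 76.3, 135, and 126 in the cells with neither gene. It was higher by 2.05 ± 0.13 and 1.20 ± 0.19 (adjusted p = 7.87e-07 and 0.0187), and by 1.49 ± 0.12 against all other B cells (adjusted p = 0.000839). The lowest follicular-like value lay above every value of the other 3 classes, but against the cells positive for both genes *Bcl2* did not pass (0.79, adjusted p = 0.167). *Nfkb1*, a subunit of NF-kappa-B, was higher by 0.66 and 0.75 against all other B cells and the *Vpreb3*-positive *Fcer2a*-negative cells. The other genes of the BAFF and NF-kappa-B list did not pass against all other B cells, so 2 of 11 did (median 0.23).

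Few genes of the B cell receptor and its control passed. Of 14 genes of receptor signaling, *Cd22*, an inhibitory coreceptor, was higher than in all other B cells (0.60, adjusted p = 0.0396; list median 0.11), at 376, 365, and 370 CPM. It was also higher than in the *Vpreb3*-positive *Fcer2a*-negative cells (0.50) and the cells with neither gene (0.88). *Ms4a1* (CD20), *Cd72*, and *Ptpn6*, the phosphatase SHP-1, were lower than in the *Vpreb3*-positive *Fcer2a*-negative cells (log2 fold changes -0.98, -1.09, and -0.62). In that comparison 1 of 13 genes of receptor signaling was higher and 2 were lower. *Ms4a1* stood at 1225, 1123, and 1178 CPM against 2455, 2840, and 1841. *Il4ra*, the IL-4 receptor chain whose ligand is known to raise CD23, was higher by 0.70 than in those cells and by 0.88 than in the cells with neither gene (adjusted p = 0.0214 and 0.0454, the latter 0.0566 with the mouse as a block), and 0.70 against all other B cells did not pass (adjusted p = 0.0561, or 0.0267 with the block).

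Of 18 B cell transcription factors 1 passed against all other B cells (list median 0.03). *Mef2c*, a MADS-box factor that acts downstream of the B cell receptor, stood at 1159, 1135, and 1118 CPM, against 468, 635, and 521 in the *Vpreb3*-positive *Fcer2a*-negative cells. It was higher by 0.97, 1.10, and 1.12 in the 3 comparisons, in the order above. *Spib*, an ETS factor, and *Irf8* were lower than in the *Vpreb3*-positive *Fcer2a*-negative cells (log2 -1.25 and -0.56, adjusted p = 0.000267 and 0.0320), with *Spib* at 310, 345, and 279 CPM against 738, 975, and 568. *Klf3* and *Mef2c* were higher than in those cells, so 2 of the 18 factors were higher and 2 were lower (list median -0.09). *Hes1*, a target of Notch, stood at 3.01, 12.7, and 14.8 CPM against 105, 52.8, and 79.4, and was lower (log2 -2.79 ± 0.42, adjusted p = 0.00129). In the same comparison *Rbpj*, the DNA-binding factor of the pathway, was higher (0.84, adjusted p = 0.0496), so 1 of 5 genes tested in the Notch list was higher and 1 was lower. *Hes1* was the only gene of the 5 to pass against all other B cells (-2.54, adjusted p = 0.0369). The 3 highest of the 1544 other B cells held 22.9% of its UMIs.

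**Figure D4:**
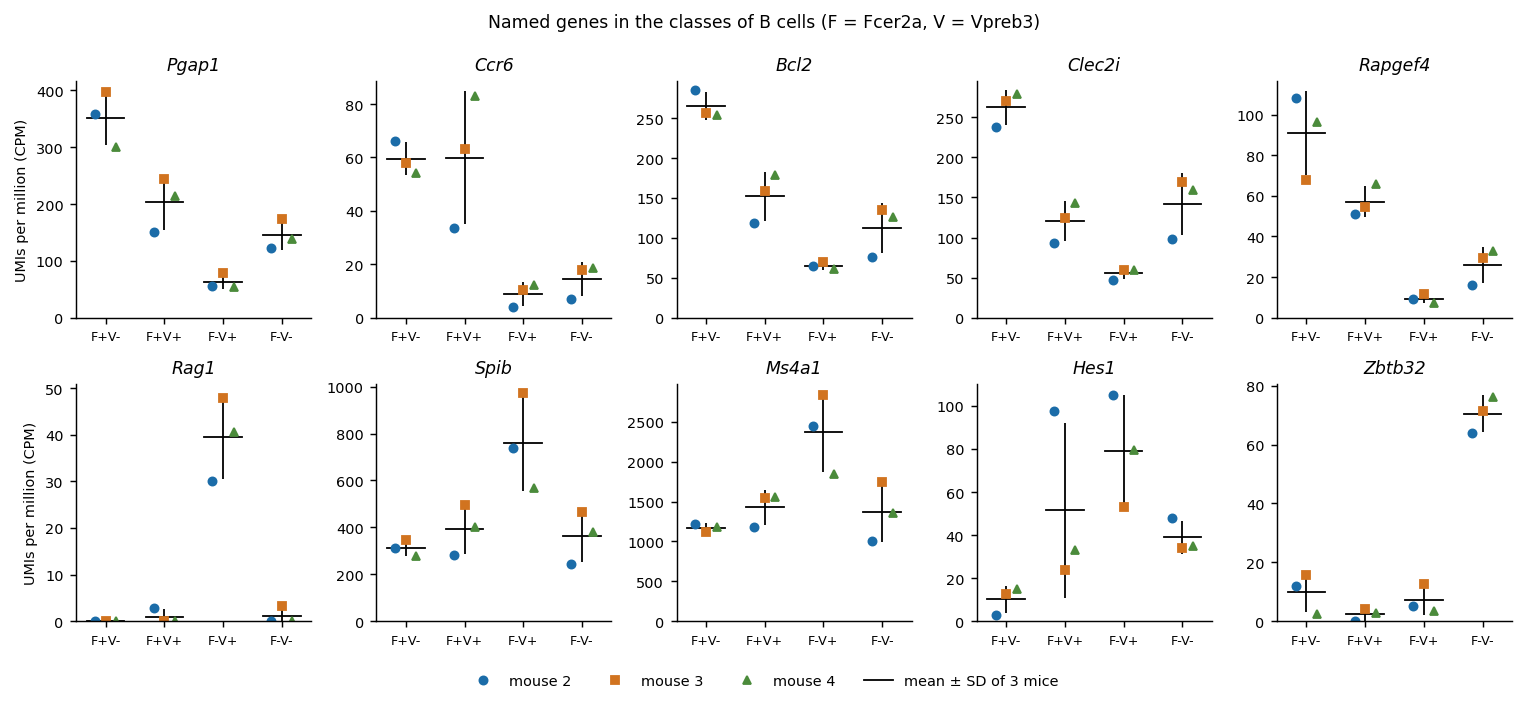
Counts per 1000000 UMIs (CPM, y axes) of 10 named genes in 4 classes of B cells (x axes, F for Fcer2a and V for Vpreb3), with 1 point per mouse and the mean ± SD of 3 mice. Pgap1 and Bcl2 are highest in the follicular-like cells (F+V-, means 352 and 265 CPM), Rag1 has UMIs mainly in F-V+ (39.5), and Zbtb32 mainly in F-V- (70.5).

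Some genes of early B cells had no UMI in the follicular-like cells, and others were measured at lower levels than in the *Vpreb3*-positive *Fcer2a*-negative cells. *Rag1*, part of the recombinase of immunoglobulin genes, had 0 UMIs in the 322 follicular-like cells and stood at 30.2, 47.9, and 40.5 CPM in the *Vpreb3*-positive *Fcer2a*-negative cells, where 46 cells had it. Set against 3 UMIs over the whole group, it was at least 20.2-fold lower (adjusted p = 0.000135). *Rag2*, *Dntt*, *Igll1*, *Vpreb1*, and *Il7r* also had 0 UMIs. *Cd24a* (346, 191, and 202 CPM against 574, 737, and 558) and *Myb* were lower as well (log2 -1.32 and -1.41), so 3 of the 6 genes tested of this list of 12 were lower (median -1.06, also with *Rag1* at its bound). Against all other B cells only *Rag1* passed (adjusted p = 0.0282), and 6 passed with the mouse as a block.

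Some cell cycle genes were lower than in the *Vpreb3*-positive *Fcer2a*-negative cells, although dividing cells were few in every class of B cells. Of this list 2 of 6 genes tested were lower than in all other B cells (median -1.54), and none of 4 passed against the cells with neither gene. Of 322 cells, 18 had a UMI of *Mki67* or *Top2a*, against 46 of 783 *Vpreb3*-positive *Fcer2a*-negative cells and 141 of 1086 other immune cells. *Mki67* stood at 3.01, 7.08, and 19.7 CPM against 77.4, 123, and 76.1 in the *Vpreb3*-positive *Fcer2a*-negative cells (log2 -3.21 ± 0.35, adjusted p = 0.00011), and *Top2a*, *Stmn1*, and *Hmgb2* were lower too, 4 of 6 genes tested (median -1.63), but with at most 10% mitochondrial UMIs none of the 3 with a value passed. The shares of cells with a UMI were nearly alike, and in the *Vpreb3*-positive cells 3 cells held 30.7% of the *Mki67* UMIs. With the cells that had a UMI of *Mki67* or *Top2a* left out of both classes, the differences of *Stmn1* and *Hmgb2* turned to 0.42 and 0.36.

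Some genes outside these lists passed as well. *Clec2i*, a C-type lectin-like gene, stood at 238, 270, and 279 CPM and was higher than in all other B cells (1.60 ± 0.12, adjusted p = 0.000726), where it stood at 75.8, 98.8, and 91.9. *Pgap1*, an enzyme that trims the GPI anchor of membrane proteins, stood at 358, 396, and 301 CPM against 105, 136, and 107 (1.65 ± 0.13, adjusted p = 0.000839). *Rapgef4*, an exchange factor for RAP1 that is switched on by cyclic AMP, stood at 108, 68.0, and 96.3 CPM against 27.1, 26.5, and 29.7 (1.71 ± 0.22, adjusted p = 0.0064). In each the groups did not overlap, which held for 22.6% of all genes tested. *Gimap3*, one of a family of lymphocyte GTPases, was higher by 1.42, *Neurl3*, a ubiquitin ligase, by 1.42, *Ms4a4c* by 1.35, and *Gpr132*, a G protein-coupled receptor, by 1.29. Of the activation genes *Cd69*, which holds lymphocytes in tissue, was higher by 1.21 (129, 178, and 156 CPM), and *Fos*, *Jun*, and *Egr1* were lower (log2 -1.61, -2.14, and -2.42), so 1 of 12 was higher and 3 were lower. *Jun* stood at 18.1, 29.7, and 9.87 CPM in the follicular-like cells, and the 3 highest of the other B cells held 35.9% of its UMIs there. None of *Fos*, *Jun*, and *Egr1* passed among cells with 2000 to 10000 UMIs (for *Jun*, log2 -0.58, adjusted p = 0.396), without mouse 2, without mouse 4, or with at most 10% mitochondrial UMIs.

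The genes named as lower than in all other B cells were *Ctla2a*, *Nrp1*, *Mgp*, *Atp1b1*, *Mki67*, *Cplx2*, *Hes1*, *Stmn1*, *Jun*, and *Cd36*. *Nrp1*, *Mgp* (matrix Gla protein), and *Cd36* are known from endothelial and stromal cells. None of the 4 genes of the endothelial list passed in this comparison (median -4.15), and 3 were lower with the mouse as a block. The rule shuts out cells with *Cdh5*, an endothelial gene, while all other B cells include the 62 cells with a UMI of an excluded gene, so lower endothelial genes may follow in part from the rule. Without those 62 cells *Nrp1* did not pass (log2 -2.69, adjusted p = 0.104), and *Mgp* and *Cd36* did (-2.72 and -1.22). *Mgp* stood at 24.1, 18.4, and 32.1 CPM in the follicular-like cells, and 3 of the 1544 other B cells held 50.3% of its UMIs. *Cplx2*, a complexin of vesicle fusion, stood at 9.03, 9.91, and 7.41 CPM, against 91.8, 97.4, and 102 in the *Vpreb3*-positive *Fcer2a*-negative cells, where it was lower in the follicular-like cells (log2 -3.40 ± 0.25, adjusted p = 3.95e-06).

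The cells with UMIs of both *Fcer2a* and *Vpreb3* differ from the follicular-like cells in the rule by *Vpreb3* alone. This comparison was added after the data were seen. Only 3 of 7228 genes passed, 1 higher (0.0138%) and 2 lower (0.0277%), 0.0415% in all and 0.083% lower with the mouse as a block, while 628 had an unadjusted p below 0.05, and DESeq2 called 22. Without TMM 1 was higher and 4 were lower, and without mouse 4, 73 genes passed. One of the 2 lower genes was *Vpreb3*, whose call the rule fixed, so the test bears on the other genes. *Clec2i* was the gene that was higher, at 238, 270, and 279 CPM against 93.5, 124, and 143 (1.12 ± 0.15, adjusted p = 0.0262), and it did not pass without mouse 3 (adjusted p = 0.791) or with doublets removed (0.0561). *Mgp* was the other gene that was lower (log2 -3.58, adjusted p = 0.00377), and 3 cells held 70.1% of its UMIs in the cells with both genes. With doublets removed, 1 gene in all passed in this comparison. None of the gene lists had another member that passed, though *Mki67* did with the mouse as a block (adjusted p = 0.0305). *H2-Aa* and *Bcl2* lay between the follicular-like and the *Vpreb3*-positive *Fcer2a*-negative cells, at means of 1883 and 152 CPM, and their differences from the follicular-like cells were 0.42 ± 0.12 and 0.79 ± 0.16 (adjusted p = 0.343 and 0.167). *Ccr6* and *Cr2* were at nearly equal means, 59.5 against 59.9 CPM and 117 against 117. A p that misses the threshold does not show that the classes are alike.

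The cells with neither gene differed from the follicular-like cells in other ways. *Zbtb32*, a zinc-finger repressor on the list of B-1 cell genes, was higher in them, at 63.9, 71.4, and 76.3 CPM against 12.0, 15.6, and 2.47 in the follicular-like cells (log2 -2.73 ± 0.37, adjusted p = 0.0123), with UMIs in 44 of 263 cells. *Plac8*, on the marginal zone list, was higher in them too, at 1101, 1484, and 1453 CPM against 933, 599, and 679 (-0.91, adjusted p = 0.0349). Higher in the follicular-like cells were *Neurl3* (184, 163, and 151 CPM against 26.6, 40.6, and 33.0; 2.25 ± 0.21, adjusted p = 0.000733), *Ccr6* (1.97), *Cr2* (1.68), *Kmo* (1.61), *Rasgrp3* (1.43), and *Fchsd2* (1.40). *Rasgrp3* is an exchange factor for RAS known downstream of the B cell receptor, and *Kmo* an enzyme of tryptophan breakdown. Several of the lower genes belong to other cells. *Ager*, of alveolar type 1 cells, *Cldn18*, of the alveolar epithelium, and *Sftpb*, of alveolar type 2 (AT2) cells, were lower (log2 -4.15, -4.74, and -3.55), and 1 of the 263 cells held 56.5% of their *Cldn18* UMIs. *Hdc*, of basophils and mast cells, was lower too, and 1 cell held 74.2% of its UMIs.

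Against 1086 other immune cells, the follicular-like cells carried the B cell genes at high levels. Here 1578 of 8999 genes were higher (17.5%) and 2212 were lower (24.6%), 42.1% in all. The other immune cells had fewer than 3 UMIs of *Cd79a* and *Cd79b*, so B cell genes were bound to differ, and their values are a description. All 10 genes of the B lineage list were higher (median 5.88, all genes -0.03). *Ebf1*, a factor that sets B cell fate, stood at 1607, 1567, and 1659 CPM against 3.82, 0.931, and 5.27. *Pou2af1*, the coactivator of octamer factors, stood at 301, 324, and 247 CPM against 0, 0.466, and 1.17. *Ffar1*, a receptor for fatty acids, stood at 45.1, 79.3, and 79.0 CPM, with 0 UMIs in the other immune cells, which makes it at least 129-fold higher. *Chst3*, a sulfotransferase, stood at 325, 354, and 437 CPM against 0, 0.466, and 1.17. Of the MHC class II genes 9 of 10 were higher (median 1.42), led by *H2-Ob* (4.98), and *H2-DMb1* did not pass (0.34, adjusted p = 0.187). Of 10 homing genes 6 were higher, and *Cxcr4*, *Itgb7*, and *Itgal* were lower.

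Genes of activation and division were lower than in the other immune cells. Of 13 activation genes 9 were lower and 2 were higher, with *Fos* at 9.03, 12.7, and 9.87 CPM (log2 -5.97 ± 0.21, adjusted p = 4.73e-12). All 11 cell cycle genes tested were lower (median -3.70, or -3.62 with *Ccnb2* at its bound). The rule kept out cells with a UMI of *Cd3e* or *Nkg7* and cells with 20 or more of *S100a8* and *S100a9*, so genes of T cells, cytotoxic cells, and neutrophils were bound to be lower, and their values are a description. Those with 0 UMIs in the 322 cells included *Gzma* of cytotoxic cells, at least 304-fold lower, *Trbc2* of T cells, at least 200-fold, and the neutrophil genes *Stfa2l1* (at least 478-fold), *Ltf* (153-fold), and *Mmp9* (153-fold). The classes of immune cells here are many, so these folds move with their mix.

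Many defining genes of other leukocytes had 0 UMIs in the follicular-like cells, which for T cells, NK cells, and neutrophils follows in part from the rule. Of 7 T cell genes, *Cd3d*, *Cd3g*, *Cd4*, *Cd8a*, *Trac*, and *Trbc2* had 0 UMIs, and the list summed to 15.0, 14.2, and 4.94 CPM, with *Lck* the most abundant. Of the NK cell genes *Ncr1*, *Klrb1c*, *Gzma*, and *Prf1* were at 0, of the macrophage genes *C1qa*, *C1qb*, and *Fcgr1*, and of the dendritic cell genes *Xcr1*, *Clec9a*, and *Siglech*. Other genes of these lists had UMIs, among them *Klrd1* (12), *Marco* (8), *Itgax* (16), and *Cd209a* (6). The cells with neither *Fcer2a* nor *Vpreb3* had 0 UMIs of *Klrd1*. The cells positive for both had 0 of *Marco*, *Itgax*, and *Cd209a*. The macrophage list summed to 30.1, 330, and 612 CPM, and of its *Lyz2* UMIs 88.6% lay in 3 cells.

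Transcripts of the lung epithelium were found in every class of B cells. The 4 AT2 genes summed to 463, 3391, and 8068 CPM in the follicular-like cells, with *Sftpc* the most abundant and 90.3% of its UMIs in 3 cells. They summed to 22673, 5280, and 15016 CPM in all other B cells, to 70075, 10904, and 31829 in the cells with neither gene, and to 3800, 221, and 3376 in the *Vpreb3*-positive *Fcer2a*-negative cells. The other immune cells, which unlike the B cells had to lack the epithelial gene *Epcam*, summed to 450, 231, and 556 CPM, so the AT2 genes are not compared with them. In the *Vpreb3*-positive *Fcer2a*-negative cells *Scgb1a1*, a product of club cells, stood at 45541, 74.9, and 112750 CPM, and 3 of the 783 cells held 99.8% of its UMIs. *Scgb1a1* was lower in the follicular-like cells (log2 -8.95, adjusted p = 0.00533), and the direction turned among cells with 2000 to 10000 UMIs (0.19). Epithelial RNA was thus higher in the cells with neither gene than in the follicular-like cells in every mouse, and its part in the other differences was not tested. Simulated doublets marked 3 of the 322 cells and 47 of the 1544 other B cells, and doublets were kept in the counts above.

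**Figure D5:**
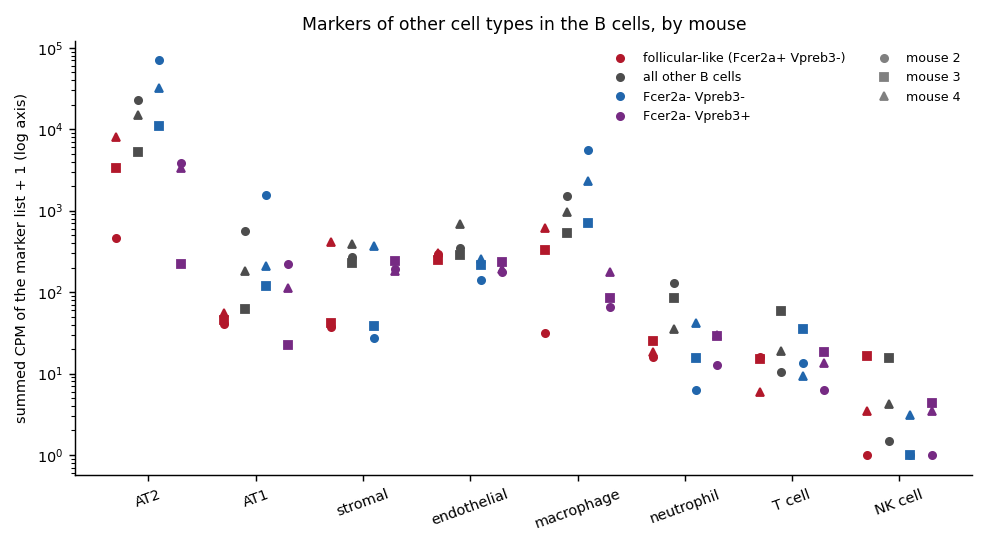
Summed counts per 1000000 UMIs plus 1 (CPM + 1, log axis) of marker lists of 8 other cell types (x axis) in the follicular-like cells and 3 other classes of B cells (colors), with 1 point per mouse (shapes). AT2 markers range from 463 to 8068 CPM in the follicular-like cells and from 10904 to 70075 in the Fcer2a- Vpreb3- cells.

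Depth per cell was compared by the median of each mouse. With 3 mice against 3 the exact p cannot fall below 0.1, so no test on it could pass. Median UMIs per cell were 4505.5, 3977, and 3787 in the follicular-like cells and 4110, 4028, and 3991 in all other B cells (exact 2-sided permutation test, p = 1, n = 3). With at most 10% mitochondrial UMIs they were 4837.5, 4402, and 4872.5 against 4310, 4129, and 4155, and the groups did not overlap (exact permutation p = 0.1). They were 3646, 3732, and 3609 in the *Vpreb3*-positive *Fcer2a*-negative cells (exact permutation p = 0.1, the smallest that 3 against 3 allows). The cells with neither gene were deeper in every mouse, at 5069.5, 4678.5, and 4392 UMIs (exact permutation p = 0.2), and had more genes per cell, 1982.5, 1922.5, and 1831 against 1778, 1706, and 1645 (exact permutation p = 0.1). When each cell was thinned to 2000 UMIs, which left out 12 of the 322, the median genes per cell were 981.5, 1031, and 1024, against 1029.5, 1073, and 1048 in all other B cells (exact permutation p = 0.2). Median mitochondrial UMIs were 11.0%, 11.3%, and 11.5%, above the 10.4%, 10.3%, and 10.2% of all other B cells in every mouse (exact permutation p = 0.1). Ribosomal protein genes took 19.0% ± 1.84 of the UMIs, and 15.9% in all other B cells. These shares moved with the class, and their part in the differences between classes was not tested.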

How the data were processed

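Per the labels and the submitters' processing notes, the authors made 10x Genomics v3 libraries and turned reads into UMI counts per gene and cell with Cell Ranger 3.0.2 on mm10, and the deposited matrices hold those raw counts (28692 genes, 9644 barcodes). The study states 5677 lung cells, and no filter on cells that gives this number is stated in the sources used here. Barcodes with 200 or more genes and no more than 20% of UMIs from mitochondrial genes were used (7642), with 22300042, 20804836, and 23442355 UMIs in mice 2, 3, and 4. Other immune cells had fewer than 3 UMIs of *Cd79a* and *Cd79b* together and at least 3 of *Ptprc*, *Coro1a*, and *Cd52* together. They had no UMI of *Cdh5* or *Epcam*, and fewer than 3 of *Col1a1*, *Col1a2*, and *Col3a1* together.

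Counts were summed per mouse and class and compared by edgeR 4.0.16 (R 4.3.3), with TMM and filterByExpr. The fitted comparisons had no block. Classes of 1 number come from the same mouse, so the mouse as a block was an alternative (correlations of deviations against all other B cells -0.184, 0.111, and 0.326). Other alternatives were DESeq2 1.42.0, other filters on cells and genes, depth windows, thinning, doublets (Scrublet in scanpy 1.11.5) removed, and each mouse left out. The code was tested on simulated data. Named genes were the 10 largest changes each way among those past 0.05, in 1 direction in all 3 mice, and at 50 CPM or more, apart from rule genes, markers, and variable segments, together with the list genes. One gene of these lists is not reported here and was left out of their counts. The members and lists were chosen with earlier results of these data known. Nothing shows that the mice were of separate litters. Depth sets the precision, and intervals cover counting error only.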

Additional observations from a re-analysis of the deposited data

How the results depend on the processing

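Genes called against all other B cells (174) numbered 109 without TMM, 498 without a filter on low counts, 680 with the mouse as a block, 433 with DESeq2, 18 with at most 10% mitochondrial UMIs (200 or 500 genes), 335 among cells with 2000 to 10000 UMIs, and 3 to 587 with 1 mouse left out. Against the cells with neither gene (146) they numbered 763 without the filter on low counts, 1 at 10% mitochondrial UMIs with either gene minimum, 232 with 2 *Fcer2a* UMIs required, 92 after thinning, and 2 to 241 with 1 mouse left out. Against the *Vpreb3*-positive *Fcer2a*-negative cells (444) they numbered 799 without that filter, 89 at 10%, 758 among cells with 2000 to 10000 UMIs, 681 without dividing cells (added after seeing the data), and 111 to 420 with 1 mouse left out. Against other immune cells (3790) they numbered 2218 and 2204 at 10% (200 and 500 genes) and 2369 after thinning. Against the cells with both genes (3) they numbered 5 without TMM, 404 without the filter on low counts, 7 with the mouse as a block, 22 with DESeq2, 1 without doublets, 12 with 2 *Fcer2a* UMIs, 8 with 5 *Cd79* UMIs, 25 among cells with 2000 to 10000 UMIs, 11 after thinning, 5 without dividing cells, and 2 to 73 with 1 mouse left out, namely 8 without mouse 2, 2 without mouse 3, and 73 without mouse 4. The filter at 10% left 24, 47, and 26 follicular-like cells, and thinning leaves fewer UMIs. The cause of the other shifts was not tested.

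The share of kept cells (4.18%) was 1.73% and 1.86% at 10%. The share of B cells (17.2%) was 18.4% with no filter on cells, 12.2% at 10%, 17.5% without doublets, 12.99% with 2 *Fcer2a* UMIs, and 19.8% with the rule applied after thinning. The difference in median UMIs (46.8) turned to -13.2 with no filter on cells, was 506 at 10%, and ran from -127.5 without mouse 2 to 172 without mouse 4. Named genes kept their call in 534 of 712 alternative values against all other B cells, in 447 of 633 against the cells with neither gene, in 879 of 1071 against the *Vpreb3*-positive *Fcer2a*-negative cells, and in 2846 of 2948 against other immune cells. Those that turned direction against the *Vpreb3*-positive *Fcer2a*-negative cells were *Scgb1a1* (0.10 with 5 *Cd79* UMIs, 0.19 among cells with 2000 to 10000 UMIs, and 0.065 without dividing cells), *Stmn1* (0.42), and *Hmgb2* (0.36), both without dividing cells. Against other immune cells they were *Col3a1* (2.40 as fitted, -0.081 without mouse 4 and 3.09 without mouse 3, -0.11 among cells with 2000 to 10000 UMIs, and -0.45 without dividing cells), *Hsp90aa1* (-0.48 as fitted, 0.033), and *Sftpc* (3.19 as fitted, -0.034), both among cells with 2000 to 10000 UMIs. *Col3a1* helped set the class of other immune cells, as did the epithelial gene *Epcam*. The values of *Col3a1* and *Sftpc* there are therefore a description, though they are counted in the 2948.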

Other observations

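Against the *Vpreb3*-positive *Fcer2a*-negative cells, where 6.05% of all genes passed, genes of lists not described above passed too. Of 10 Toll-like receptor genes, 4 could be tested, and *Tlr1* was higher by 1.03 (adjusted p = 0.0173) and *Cd180*, a relative of these receptors, lower (log2 -0.58, adjusted p = 0.0409). *Icosl* and *Cd83*, genes of costimulation and activation, were higher by 1.22 and 1.04 (adjusted p = 0.0305 and 0.038), 2 of 4 costimulation genes tested. *Fcgrt*, the receptor that recycles IgG, was higher by 1.33 (adjusted p = 0.0376) and *Fcrl1* by 0.60 (adjusted p = 0.0485), 2 of 5 Fc receptor genes tested. Against all other B cells none of these 3 lists had a gene that passed, while 1, 2, and 1 genes did with the mouse as a block. No gene of the marginal zone list passed against all other B cells or against the *Vpreb3*-positive *Fcer2a*-negative cells (6 tested in each, medians 0.03 and 0.06), and against the cells with neither gene 1 of 5, *Plac8*, was lower.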
